A study of Mus musculus with 18 samples.

Results

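The transcript response to CpG was examined in splenic B cells that carry the Tlr997 chimera, a TLR9 whose signalling TIR domain was exchanged for that of TLR7. The 6 libraries with titles naming this genotype, of 18 in the series, were chosen by their labels: 3 were left unstimulated and 3 were given CpG. Unstimulated cells were cultured for 4 h without agonist, and stimulated cells for 4 h with 10 µg/ml of the CpG oligodeoxynucleotide ODN 1826. The 6 libraries came from female MRL/lpr mice, given as 5 to 7 weeks old in the labels and as 5 weeks old in the methods (MRL mice with the Fas lpr mutation, an autoimmune strain), and the mice of both groups carried Tlr997 and were Tlr7-/-. Tlr997 was made by CRISPR/Cas9 insertion of the TLR7 TIR sequence with a stop codon into the Tlr9 locus, so that every cell of the mouse carries it, and founders were backcrossed before use. B cells were enriched by depleting other cells with magnetic beads. The comparison genotype, called Tlr9het here, is given as Tlr9+/- Tlr7-/- in the titles but as Tlr9-/- Tlr7-/- in the protocol. Its 6 libraries had the same treatments. Tlr9 was between 7.28 and 8.08 log2 CPM in all 6, and CpG raised Il12b in them by 8.18 log2 units, so these cells held Tlr9 transcript and responded to the TLR9 agonist, as cells of the genotype in the titles would.

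TLR9 is an endosomal receptor for unmethylated CpG DNA. Ligand binding recruits MyD88 and IRAK kinases to the TIR domain, and the resulting complex activates NF-κB, MAP kinases and interferon regulatory factors. In resting splenic B cells this induces cytokines, surface activation markers and Myc, and it prepares the cells for growth and division. The question of the comparison was which transcripts the chimeric receptor moved in 4 h.

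Each library gave 23420 genes as log2 CPM after quantile normalization, and the CPM of a library summed to between 992266 and 1003070. No counts were given, so the depth of each library is unknown. The most frequent low value, -5.052, corresponds to a mean library of about 16.6 M counts, at which 3 counts would be at -2.24 log2 CPM. Over the 11494 genes tested, Pearson's r across genes, which are not independent replicates, was between 0.979 and 0.986 among the CpG libraries and between 0.842 and 0.893 between groups. Unstimulated libraries 1 and 2 correlated at 0.985, but library 3 correlated with them at 0.947 and 0.955. Library 3 lay more than 1 log2 unit from the mean of the other 2 in 1171 genes, against 738 and 573 for libraries 1 and 2, so results were also computed without it. Tlr9 was at 7.04, 7.06 and 7.01 log2 CPM unstimulated and at 7.55, 7.18 and 7.19 with CpG. Tlr7 was at 4.87, 4.81 and 5.18 unstimulated and at 5.33, 5.36 and 5.33 with CpG. The chimeric allele holds TLR7 TIR sequence, and reads from it cannot be told apart from reads of the Tlr7 locus in gene-level values. In the Tlr9het libraries, which are Tlr7-/- and lack the chimeric allele, Tlr7 was at 3.29, 3.48 and 2.68 unstimulated and at 4.11, 4.24 and 4.28 with CpG. The gene-level value was thus above 0 also without the chimeric allele, and it was lower in every Tlr9het library than in any Tlr997 library.

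Defining markers of B cells were high in all 6 libraries. The summed level of 6 B cell markers was between 12.4 and 12.6 log2 CPM unstimulated and between 11.3 and 11.6 with CpG, and 3 of the 6 fell with CpG (Cd79a, Cd79b and Cd22). Ms4a1, which encodes CD20, was at 10.1 to 10.3 unstimulated and 10.5 to 10.6 with CpG. Macrophage and monocyte markers summed to between 7.46 and 8.75 unstimulated and between 6.77 and 7.89 with CpG, and 1 of 7 rose and 2 fell. The 1 that rose was Itgam, at 2.23 in unstimulated library 3 against 4.05 and 4.00 in the others. T cell markers summed to between 5.90 and 6.29 unstimulated and between 6.36 and 6.56 with CpG. Of the 9, Cd8a, Cd8b1 and Thy1 rose, a share near the 29.6% of all tested genes, all 3 at no more than 2.33 log2 CPM. Thy1 was at -4.65 in unstimulated library 3 against -0.77 and 0.72 in the others. Lck made up most of the sum at 5.79 to 6.32. Erythroid markers were high in replicate 1 of both groups (9.63 and 8.63 log2 CPM against at most 6.10 elsewhere), and neutrophil markers were low in replicate 3 of both groups (5.64 and 4.88 against at least 6.44 elsewhere). In bulk RNA, fewer cells of a type and less RNA per cell cannot be told apart.

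CpG raised 3400 of 11494 genes (29.6%) and lowered 2988 (26%), so the response was spread over the transcriptome. Quantile normalization gave all libraries a common distribution, so the near balance of rises and falls is not a result about CpG. A gene was called when limma's Benjamini-Hochberg adjusted p was under 0.05 and the log2 fold change exceeded 0.5 in size. The 3 CpG libraries did not overlap with the 3 unstimulated libraries in 8185 genes (71.2%). A rise of more than 2 log2 units was called in 524 genes and a fall of that size in 674. More than 4 log2 units were reached by 56 genes that rose and 59 that fell. The median change of all tested genes was 0.07 log2 units, that of genes called higher 1.12 and that of genes called lower -1.20.

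The direction of change varied with the starting level, which is itself part of the change. Of 809 genes over 8 log2 CPM before stimulation, 126 rose and 355 fell. Of 2138 genes under 2 log2 CPM, 722 rose and 298 fell. Abundant transcripts of resting cells were thus more often lower than higher, and transcripts near the bottom of the range more often higher. Values were quantile normalized to a common distribution, so a change in the total RNA of a cell cannot be seen, and a gene's value is relative to the other genes of its library. Genes that rose spanned a median of 17.98 kb in the genome, those that fell 28.0 kb and all tested genes 22.5 kb.

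**Figure D1:**
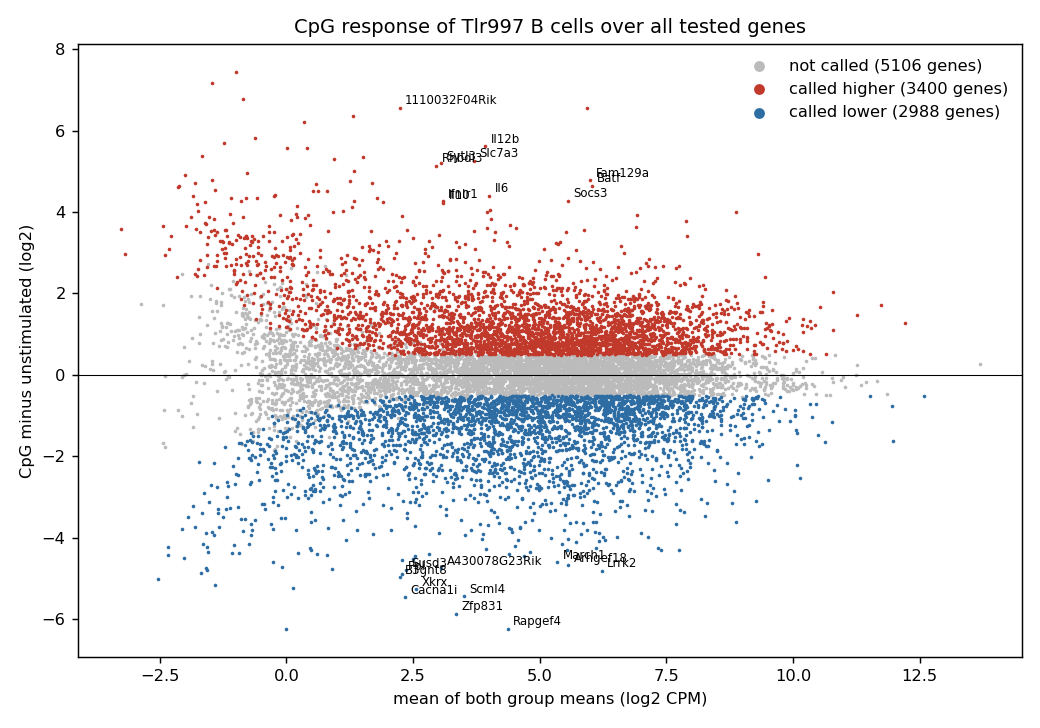
The change with CpG (vertical axis, log2) of each tested gene in Tlr997 B cells against its mean level (horizontal axis, log2 CPM), with genes called higher in red, genes called lower in blue and others in grey. The leading genes described in the text are named, and at high levels blue points outnumber red points: of 809 genes over 8 log2 CPM before stimulation 355 fell and 126 rose.

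The genes with the greatest rise among those over 2 log2 CPM on average included the cytokine genes Il12b, Il6 and Il10 and the transcription factor gene Batf. The uncharacterised transcript 1110032F04Rik rose by 6.56 ± 0.31 (SE) log2 units, from between -1.53 and -0.45 log2 CPM unstimulated to between 5.01 and 5.80 with CpG. Il12b, the p40 subunit shared by IL-12 and IL-23, was at 1.10, 0.43 and 1.81 unstimulated and at 6.73, 6.80 and 6.65 with CpG, a rise of 5.61 ± 0.28 (limma adjusted p = 8.89e-10). In both of these genes the groups were separated by several times the spread within them. Slc7a3, a carrier of cationic amino acids, rose by 5.25, Sytl3, a synaptotagmin-like protein of vesicle transport, by 5.19, and Rhbdl3, of the rhomboid family, by 5.13. Fam129a rose by 4.78, Batf by 4.64, Il6 by 4.39, Socs3 by 4.27, Ifnlr1, a chain of the interferon lambda receptor, by 4.26 and Il10 by 4.22.

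The genes with the greatest fall, by the same rule, included Rapgef4, Zfp831, Lrrk2 and March1. Rapgef4 (chromosome 2, 71981215 to 72257474), a cAMP-activated exchange factor for Rap GTPases, was at 7.58, 7.16 and 7.71 log2 CPM unstimulated and at 1.15, 0.82 and 1.79 with CpG. It fell by 6.23 ± 0.24 (SE) log2 units, a 75.2-fold decrease (limma adjusted p = 1.03e-10). Lrrk2 (chromosome 15, 91672791 to 91816124), which encodes a leucine-rich repeat kinase, was at 8.51, 8.52 and 8.85 unstimulated and at 3.78, 3.80 and 3.88 with CpG and fell by 4.81 ± 0.08 (limma adjusted p = 2.68e-13). Every stimulated library was thus more than 4 log2 units below every unstimulated one. The zinc finger gene Zfp831 fell by 5.86, the calcium channel gene Cacna1i by 5.46, Scml4 of the Polycomb family by 5.43, Xkrx by 5.26, the glycosyltransferase gene B3gnt8 by 4.97, the periplakin gene Ppl by 4.89 and Susd3 by 4.80. Arhgef18, a guanine nucleotide exchange factor, fell by 4.67 and A430078G23Rik by 4.75. These 2 symbols have the same annotated coordinates (chromosome 8, 3353338 to 3456601), so how reads were divided between them is uncertain. March1, a ubiquitin ligase that removes MHC class II and CD86 from the cell surface, fell by 4.59, from between 7.52 and 7.87 to between 2.65 and 3.35.

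No gene of the receptor complex was called higher with all libraries. Of 19 genes of the receptor, its chaperones, adaptors and proximal kinases, 0 rose and 6 fell (31.6%), against 29.6% and 26% of all tested genes, and the median change was -0.14. Tlr9 differed by 0.27 ± 0.09 log2 units (limma adjusted p = 0.0158) and Myd88, the adaptor, by 0.44 ± 0.08 (limma adjusted p = 0.000148), both short of the fold threshold. Without unstimulated library 2 Myd88 passed it, at 0.51. Irak3, an inhibitory member of the IRAK family, fell by 1.84, Slc15a4, an endolysosomal transporter required for signalling by endosomal TLRs, by 1.52 and Irak2 by 1.20. Unc93b1, which escorts the nucleic acid-sensing TLRs to endosomes, fell by 0.75 and the TLR chaperone Hsp90b1 by 0.82.

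In the NF-κB family, genes for inhibitors and for subunits were both among those that rose. Of 19 subunits, inhibitors and regulatory kinases, 10 rose (52.6%, against 29.6% of all tested genes) and 2 fell (10.5%, against 26%), with a median of 0.56. Nfkbiz (chromosome 16, 55811375 to 55838954), a nuclear IκB protein needed for induction of Il6 and Il12b, was at 6.78, 6.63 and 7.195 unstimulated and at 11.03, 10.77 and 10.77 with CpG. It rose by 3.99 ± 0.12 (limma adjusted p = 1.57e-11). Nfkbia, which encodes IκBα, rose by 1.81, Tnfaip3, which encodes the deubiquitinase A20, by 1.71, Nfkbib by 1.70 and the kinase gene Ikbke by 1.93. Of the subunits, Nfkb1 rose by 1.66, from between 9.64 and 9.77 to between 11.27 and 11.41, and Nfkb2 by 0.64. Rel differed by -0.17 and Relb by -0.34 and were not called, as was Rela at -0.15. Cyld, a deubiquitinase that restrains NF-κB, went the other way from Tnfaip3 and fell by 1.95.

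Promoter sequences of genes that rose are shown because matches to the κB motif, which NF-κB binds, lie close to their starts. RefSeq promoters (GRCm38) were searched over 250 bases before the start for GGGNNTTNCC on both strands. Of 8 NF-κB family genes that rose and had a promoter sequence, 4 held the motif, and so did 2 of 12 cytokine genes and 2 of 13 activation markers. Of all promoters 4.02% held it, of genes that rose 4.83% and of genes that fell 4.63%, so over the whole response the motif was about as frequent in both directions. The windows are chr12:55492648-55492697 for Nfkbia and chr10:19015411-19015460 for Tnfaip3, both on the minus strand, chr5:30013050-30013099 for Il6 and chr17:55952559-55952608 for Ebi3, both on the plus strand, and chr2:11642571-11642620 for Il2ra, also on the plus strand. Capitals mark the match, 5′ to 3′ in the direction of the gene. The match begins 29 bases before the start of Nfkbia, 12 before that of Tnfaip3, 44 before those of Il6 and Ebi3 and 201 before that of Il2ra. A match is a description of the letters and not evidence of binding.
Nfkbia: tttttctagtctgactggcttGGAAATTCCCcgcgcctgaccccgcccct
Tnfaip3: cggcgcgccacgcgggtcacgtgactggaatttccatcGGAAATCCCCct
Il6: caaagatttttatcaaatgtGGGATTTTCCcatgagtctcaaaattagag
Ebi3: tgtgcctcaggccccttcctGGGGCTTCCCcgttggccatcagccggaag
Il2ra: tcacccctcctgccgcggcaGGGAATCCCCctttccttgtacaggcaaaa

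Most cytokine and chemokine genes that passed the filter on low values rose. Of 29 cytokine and 18 chemokine genes listed, 21 and 11 passed it. Of 21 cytokine genes tested, 17 rose and 2 fell, with a median of 2.21, and of 11 chemokine genes 7 rose and 0 fell, with a median of 1.74. The shares that rose were 81% and 63.6%, against 29.6% of all tested genes. The groups did not overlap in 20 of the 21 and 6 of the 11, against 71.2% of all tested genes. A gene silent without CpG passes the filter only through CpG libraries, so these shares are a description of the genes that passed. Il6 (chromosome 5, 30013114 to 30019975) was at 1.07, 1.65 and 2.71 unstimulated and at 5.51, 6.71 and 6.38 with CpG, a rise of 4.39 ± 0.37 (limma adjusted p = 1.71e-07). Il10, an inhibitory cytokine of activated B cells, was at 1.16, 1.66 and 0.12 unstimulated and at 4.91, 5.38 and 5.31 with CpG, a rise of 4.22 ± 0.32 (limma adjusted p = 4.87e-08). Inflammatory and inhibitory cytokines were thus raised in the same libraries. Lif rose by 4.53, Ebi3, a subunit of IL-27 and IL-35, by 3.68, Tnf by 1.69 and Lta by 1.70. Il12a, which encodes the p35 partner of p40 in IL-12, differed by -0.38 and was not called. Ltb fell by 3.09 and Tgfb1 by 1.71. Ifnb1 was at -4.74, -3.71 and -4.90 unstimulated, all under the level of 3 counts, and at 1.12, 0.53 and -0.32 with CpG, so it was called higher at a very low level and no fold is given.

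Among chemokines, Ccl22, a ligand of CCR4, was at 2.01, 2.06 and 2.31 unstimulated and at 6.13, 6.13 and 5.61 with CpG and rose by 3.83 ± 0.16 (limma adjusted p = 1.6e-10). Cxcl10, an interferon-inducible ligand of CXCR3, rose by 3.31. Ccl3 rose by 3.16 and Ccl4 by 2.49, but the annotated spans of these neighbours overlap, and it is not stated that counting used strand, so their values are uncertain. Ccl5 rose by 1.74 and Cxcl16 by 1.98. Other cell types also make many of these factors. The summed macrophage and monocyte markers were at 6.77 to 7.89 log2 CPM with CpG against 7.46 to 8.75 unstimulated, with overlap. The summed dendritic cell markers were higher with CpG, at 6.20 to 6.53 against 5.35 to 5.47, with 1 of 5 tested called (Zbtb46), and so were the summed T cell markers, at 6.36 to 6.56 against 5.90 to 6.29. The part of these cells in the chemokine values was not tested.

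**Figure D2:**
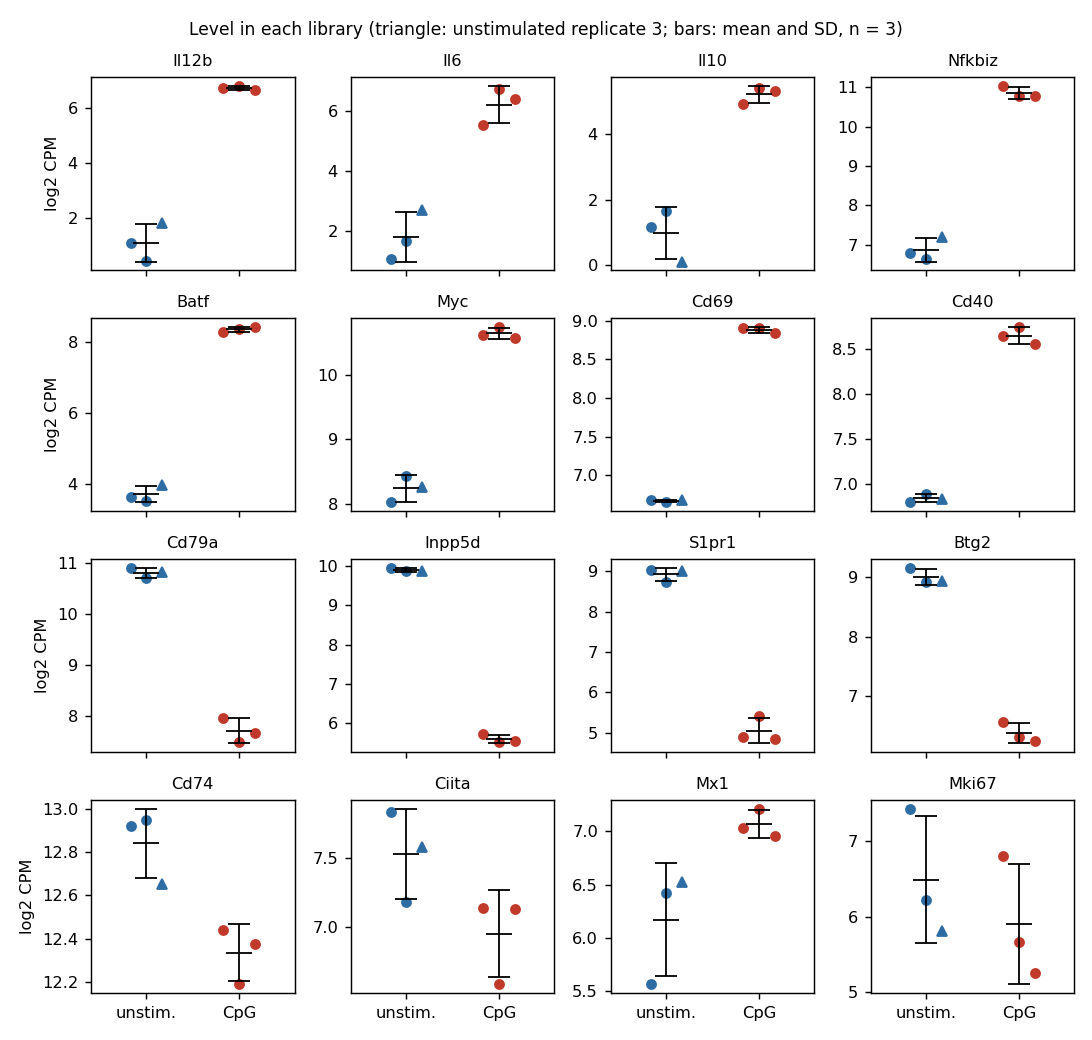
Level (log2 CPM, each panel on its own scale) of 16 named genes in the 3 unstimulated (blue) and 3 CpG-stimulated (red) Tlr997 libraries, with mean and SD bars, n = 3; the triangle is unstimulated replicate 3. The groups are far apart for Il12b, Batf, Cd79a and Inpp5d, while for Mki67 they overlap (5.81 to 7.42 against 5.26 to 6.79). In each replicate number the CpG value of Mki67 is below the unstimulated one.

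Surface molecules of B cell activation rose as a group. Of 21 costimulatory and activation markers, 17 rose (81%, against 29.6% of all tested genes) and 3 fell (14.3%, against 26%), with a median of 1.81. Cd69, an early activation marker, was at 6.68, 6.65 and 6.67 unstimulated and at 8.90, 8.91 and 8.84 with CpG, a rise of 2.22 ± 0.07 (limma adjusted p = 1.38e-11). Cd40, which receives T cell help, rose by 1.81, from between 6.80 and 6.89 to between 8.55 and 8.75. Il2ra, the alpha chain of the IL-2 receptor, rose by 3.40, Slamf1 by 3.51, Tnfrsf13b, which encodes TACI, by 2.69 and Slamf7 by 2.28. Cd83 rose by 1.23, Icam1 by 1.31 and Cd80 by 1.98. Cd86, the other ligand of CD28, did not follow Cd80: it fell by 0.54 ± 0.11, and its change was -0.45 and not called without unstimulated library 3. It was also under the fold threshold without unstimulated library 2 (-0.50) and without CpG library 1 (-0.45). Icosl fell by 1.11 and Tnfrsf18 by 1.45.

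Transcripts of the MHC class II list fell, those of genes that restrain presentation included. All 14 genes of the list were called lower (background 26%), with a median of -2.10, and 11 were without unstimulated library 1. Among accessory genes, March1 fell by 4.59, H2-Oa, a chain of the inhibitor of peptide loading, by 2.87, H2-DMa by 2.69 and H2-DMb2 by 2.66, both of the peptide-loading factor. H2-Aa, a chain of the presenting molecule, was at 11.50, 11.34 and 11.50 unstimulated and at 9.94, 9.63 and 9.82 with CpG and fell by 1.65 ± 0.09 (limma adjusted p = 2.3e-09). H2-Ab1 fell by 0.97 and H2-Eb1 by 1.03. Ciita, the transactivator of these genes, fell by 0.58 ± 0.20 (limma adjusted p = 0.0172), and its change was not called without unstimulated library 1 (-0.43) or without CpG library 2 (-0.40). Cd74, the invariant chain, fell by 0.50 ± 0.10 and was under the fold threshold without unstimulated library 1 (-0.46), without unstimulated library 2 (-0.45) and without CpG library 2 (-0.43). In both genes every stimulated library was nevertheless below every unstimulated one.

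Class II promoters are known for a Y box, an inverted CCAAT element of their shared promoter module, and 3 windows are shown because their genes fell together. GATTGG occurred on either strand in the 250 bases before the start in 7 of 11 members that fell and had a promoter sequence, 63.6%, against 15.1% of all promoters, 20.4% of genes that rose and 20% of genes that fell. It was not particular to this list or to genes that fell. Of members that rose, 6 of 10 in the G1 to S list and 8 of 15 in the amino acid list held it. Of members that fell, 4 of 5 in the chaperone and secretory list and 0 of 15 in the B cell receptor list did. The windows are chr17:34145136-34145185 for H2-DMb2 and chr17:34238825-34238874 for H2-Ob on the plus strand and chr17:34287845-34287894 for H2-Aa on the minus strand. Capitals mark the motif, which begins 91, 58 and 49 bases before the start. Several of these genes are related in sequence and lie side by side on chromosome 17, so they are not independent.
H2-DMb2: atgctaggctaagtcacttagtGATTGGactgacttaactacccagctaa
H2-Ob: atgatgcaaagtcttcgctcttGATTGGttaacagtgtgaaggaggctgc
H2-Aa: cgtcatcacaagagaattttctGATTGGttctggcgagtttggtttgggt

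Most genes of the B cell receptor and its signalling partners fell. Of 24 genes, 18 fell (75%, against 26% of all tested genes) and 1 rose (4.17%, against 29.6%), with a median of -1.07, and 2 rose without CpG library 2. Cd79a (chromosome 7, 24897497 to 24901858), a signalling chain of the receptor, was at 10.90, 10.71 and 10.82 unstimulated and at 7.97, 7.49 and 7.67 with CpG, a fall of 3.10 ± 0.10 (limma adjusted p = 1.68e-11). Cd79b fell by 2.58, Btk by 2.52 and Syk by 1.69. The negative regulators fell too: Inpp5d (chromosome 1, 87620312 to 87720510), the lipid phosphatase SHIP1, from 9.96, 9.87 and 9.88 to 5.73, 5.54 and 5.55, that is by 4.30 ± 0.07 (limma adjusted p = 1.94e-13), the diacylglycerol kinase gene Dgka by 4.11, Cd22 by 2.71, Siglecg by 2.12 and Fcgr2b by 1.42. Activating and inhibitory parts of the pathway thus fell together. Blnk, an adaptor, differed by -0.23 ± 0.07 and was not called. Cd81, a tetraspanin, was the 1 gene that rose, by 1.67.

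Most receptors that position B cells fell. Of 21 homing genes, 13 fell (61.9%, against 26% of all tested genes) and 4 rose (19%, against 29.6%), with a median of -1.44. S1pr1 (chromosome 3, 115710433 to 115715055), the sphingosine 1-phosphate receptor used for exit from lymphoid tissue, was at 9.03, 8.74 and 9.02 unstimulated and at 4.90, 5.41 and 4.85 with CpG and fell by 3.88 ± 0.13 (limma adjusted p = 2.29e-11). S1pr4 fell by 4.19, Itgb7 by 3.91, Cnr2, a cannabinoid receptor, by 3.88 and Cxcr4 by 3.47. Ccr7, which directs cells to the border of the T cell zone, rose by 1.16 ± 0.08, from between 9.65 and 9.88 to between 10.79 and 11.06. Cxcr5, the receptor for the follicular chemokine, differed by 0.30 ± 0.05 and was not called. The 4 markers of marginal zone B cells all fell, Cr2 by 1.06 and S1pr3 by 1.44 among them, and Fcer2a, used as a marker of follicular cells, rose by 0.58.

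Most factors that hold lymphocytes in quiescence fell. Of 22 genes, 17 fell (77.3%, against 26% of all tested genes) and 1 rose (Slfn2, by 0.78), with a median of -1.80. Btg2, an antiproliferative factor, was at 9.16, 8.91 and 8.93 unstimulated and at 6.57, 6.32 and 6.25 with CpG and fell by 2.62 ± 0.09 (limma adjusted p = 3.85e-11). Klf2 fell by 2.65, Klf13 by 2.56, Cdkn1b, which encodes the cell cycle inhibitor p27, by 2.52, Txnip by 2.22, Tsc22d3 by 2.13 and Pik3ip1, an inhibitor of PI3 kinase, by 3.12. Btg1 fell by 1.00 and Foxo1 by 0.61, while Foxp1 differed by -0.32 and was not called.

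Of 21 AP-1 and early factors, 8 rose (38.1%) and 7 fell (33.3%), with a median of 0.25. These shares were near those of all tested genes (29.6% and 26%), so the values describe single genes. Myc (chromosome 15, 61985341 to 61990361) was at 8.03, 8.43 and 8.27 unstimulated and at 10.61, 10.74 and 10.57 with CpG and rose by 2.39 ± 0.10 (limma adjusted p = 1.28e-10). Batf was at 3.63, 3.53 and 3.96 unstimulated and at 8.27, 8.36 and 8.42 with CpG and rose by 4.64 ± 0.11, and Jun rose by 3.77. Egr3 fell by 2.34 and Egr1 by 1.25. Junb differed by 0.24 and Fos by -0.36, neither called with all libraries, and Fos was called at -0.63 without unstimulated library 3.

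Of 28 feedback inhibitors of cytokine and kinase signalling, 13 rose (46.4%, against 29.6% of all tested genes) and 7 fell (25%, against 26%), with a median of 0.46. The share that fell was that of the background. Socs3, an inhibitor of cytokine receptors, was at 3.70, 3.65 and 2.92 unstimulated and at 7.39, 7.53 and 8.17 with CpG, a rise of 4.27 ± 0.22 (limma adjusted p = 1.41e-09). Cish rose by 2.96, Lag3 by 1.53 and Socs1 by 1.32. Socs2 rose by 4.02 ± 1.08 with unstimulated values of 1.05, 0.81 and -4.57, and by 2.19 without library 3. Zc3h12a, which encodes the RNase regnase-1, rose by 0.94, and Cd274, which encodes PD-L1, by 1.78. Dusp6, a phosphatase of ERK, fell by 3.06, and the ERK pathway inhibitors Spry1 and Spry2 fell by 1.51 and 1.72. The mRNA-decay factors Zfp36, Zfp36l1 and Zfp36l2 fell by 1.30, 0.82 and 2.41.

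Of 35 interferon-responsive genes, 16 rose (45.7%, against 29.6% of all tested genes) and 6 fell (17.1%, against 26%), with a median of 0.43. Ifitm3, an antiviral membrane protein, was at 2.81, 3.47 and 2.15 unstimulated and at 6.36, 6.02 and 5.54 with CpG and rose by 3.16 ± 0.29 (limma adjusted p = 3.18e-07). Isg15, a ubiquitin-like modifier, rose by 2.09 ± 0.35, the RNA sensor gene Ifih1 by 1.62 and Ifi44 by 1.45. Mx1 rose by 0.89 ± 0.29 (limma adjusted p = 0.0147) and was at 0.59 and not called without unstimulated library 1. Irf7, the interferon regulatory factor of this response, differed by 0.27 ± 0.19 (limma adjusted p = 0.229), with overlapping libraries, and Ifit3 by -0.58 ± 0.30 (limma adjusted p = 0.0924). Stat2, which carries interferon signals to the nucleus, fell by 0.74.

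The interferon-stimulated response element occurred in 6 of 12 members that rose and had a promoter sequence (50%), against 3.05% of all promoters, 3.44% of genes that rose and 2.29% of genes that fell. The motif searched was GAAANNGAAA on both strands in the 250 bases before the start. Windows of 4 genes are shown to display the repeats: chr4:156200855-156200904 for Isg15, chr8:71537567-71537616 for Bst2 and chr5:120907526-120907575 for Oas1a on the minus strand and chr19:34640784-34640833 for Ifit1 on the plus strand. Capitals mark the matches, which overlap each other in Isg15, Bst2 and Oas1a. In Ifit1 the capitals show the opposite strand of the motif. These genes rose by 2.09, 1.43, 1.21 and 1.11.
Isg15: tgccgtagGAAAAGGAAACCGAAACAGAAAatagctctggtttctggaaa
Bst2: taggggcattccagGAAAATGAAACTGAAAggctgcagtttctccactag
Oas1a: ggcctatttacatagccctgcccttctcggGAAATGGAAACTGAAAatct
Ifit1: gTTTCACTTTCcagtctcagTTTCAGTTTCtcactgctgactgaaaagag

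Genes of biosynthesis rose together, and ribosome biogenesis rose in full. All 38 genes of ribosome biogenesis and RNA polymerase I were called higher, with a median of 1.62. Rrp9, a component of the U3 particle that processes ribosomal RNA, was at 5.33, 5.42 and 5.16 unstimulated and at 7.66, 7.65 and 7.77 with CpG and rose by 2.39 ± 0.07 (limma adjusted p = 1.56e-11). Ncl, which encodes nucleolin, rose by 1.71 and reached between 12.25 and 12.97 log2 CPM, Npm1 rose by 1.46, Nop56 by 1.66 and Polr1b, a subunit of RNA polymerase I, by 1.96. The proteins of the finished ribosome did not move with them: of 34 cytosolic ribosomal protein genes 0 rose and 2 fell, among them Rps23 by 0.54, with a median of -0.26. These shares were 0% and 5.88%, against 29.6% and 26% of all tested genes. The count of lower genes was 5 without unstimulated library 3 and 4 without CpG library 2.

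Genes that supply amino acids and nucleotides rose as well, against 29.6% of all tested genes that rose and 26% that fell. Of 20 cytosolic tRNA synthetase genes 18 rose and 0 fell (median 1.38), Cars by 1.96, Yars by 1.89 and Tars by 1.80 among them. Of 22 genes of amino acid transport and serine synthesis 18 rose and 0 fell (median 1.41). Slc7a5, the light chain of a neutral amino acid carrier, rose by 2.10, from between 7.46 and 7.92 to between 9.57 and 9.81, and its heavy chain Slc3a2 by 0.84. Asns, asparagine synthetase, rose by 2.52 and Mthfd2, of mitochondrial folate metabolism, by 2.38. Of 24 nucleotide synthesis genes 19 rose and 2 fell (median 1.15), and 1 fell without CpG library 2. The paralogs that make CTP moved in opposite directions: Ctps rose by 2.12 ± 0.06, from between 5.91 and 5.99 to between 7.99 and 8.11, and Ctps2 fell by 2.54 ± 0.09, from between 6.52 and 6.79 to between 4.06 and 4.19. Of 28 cholesterol and fatty acid genes 18 rose and 2 fell (median 0.87), with Idi1 up by 2.19, Lss by 1.68, Fasn by 1.59 and Sqle by 1.25. Scd2, a fatty acid desaturase, fell by 2.45.

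Genes of energy metabolism rose about as often as all tested genes (29.6%) but fell less often than all tested genes (26%). Of 22 glycolysis and lactate genes 8 rose (36.4%) and 2 fell (9.09%, median 0.29), and 6 rose without unstimulated library 3. Hk2 was at 5.00, 5.39 and 5.11 unstimulated and at 8.03, 8.24 and 8.23 with CpG and rose by 3.00 ± 0.11 (limma adjusted p = 5.16e-11), while its paralog Hk1 fell by 1.80, from between 6.38 and 6.58 to between 4.56 and 4.84. The hexokinase genes thus moved in opposite directions in all 3 stimulated libraries. Ldha, lactate dehydrogenase A, rose by 1.11 and the lactate carrier Slc16a1 by 1.92. Gapdh differed by -0.19 and Slc2a1, a glucose carrier, by -0.32, and neither was called. Eno1, at or under 1.23 in all 6 libraries, was called higher by 2.78 with an unstimulated value of -4.57 in library 3, and by 1.40 without it. The level is low for this enzyme, and how reads shared with near-identical copies were counted is not known, so it is uncertain. Of 31 oxidative phosphorylation genes 10 rose (32.3%) and 1 fell (3.23%, median 0.31). Cycs, which encodes cytochrome c, rose by 1.49 and Cox10, an assembly factor, by 1.29, while Sdha fell by 0.74.

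**Figure D3:**
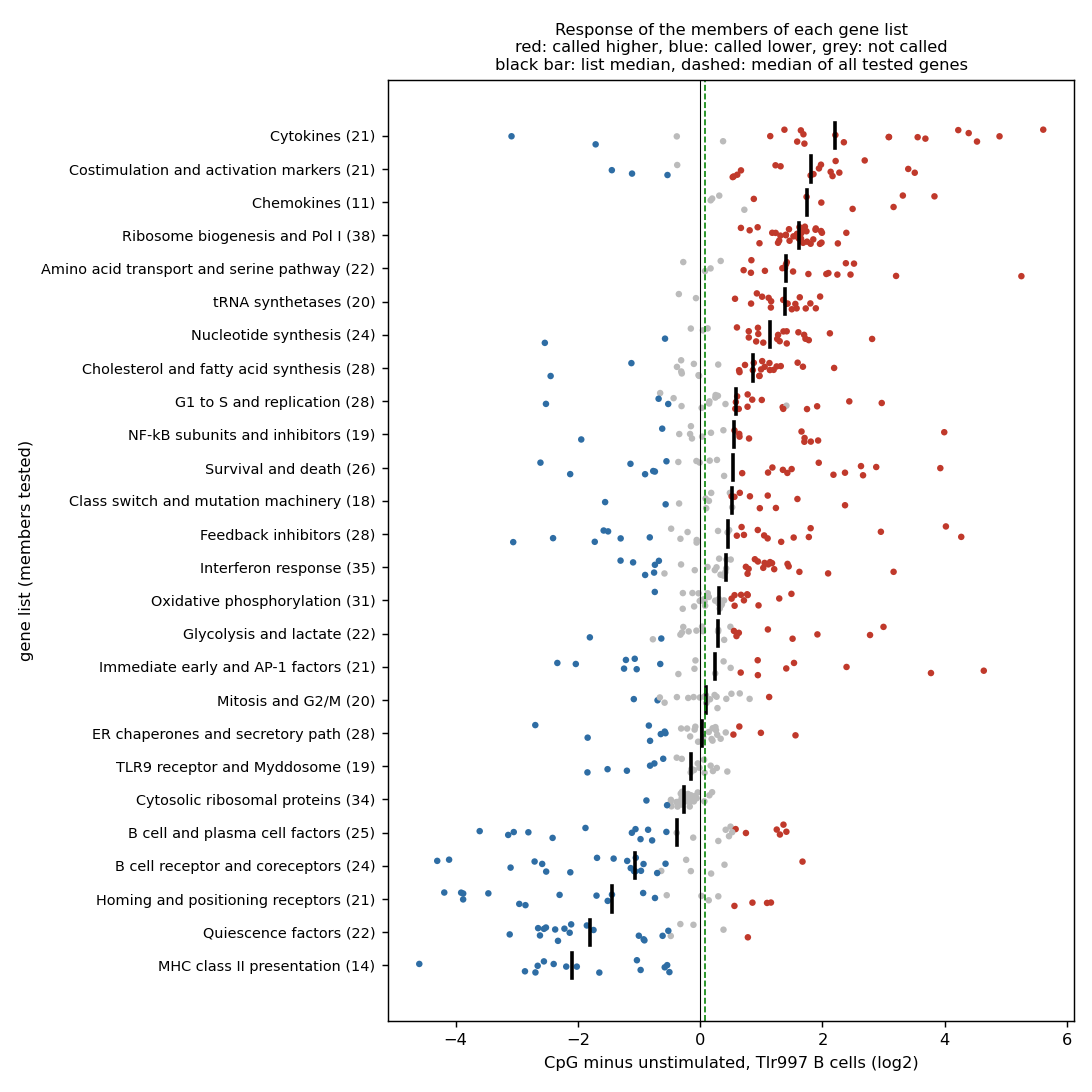
Change with CpG (horizontal axis, log2) of each tested member of the 26 gene lists in Tlr997 B cells, with members called higher in red, called lower in blue and others in grey. Black bars are list medians, from -2.10 for MHC class II presentation to 2.21 for cytokines, and the dashed line is the median of all tested genes, 0.07.

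Of 28 genes of G1 to S and replication, 14 rose (50%, against 29.6% of all tested genes) and 3 fell, with a median of 0.58. Ccnd2 (chromosome 6, 127125162 to 127152188), a G1 cyclin, was at 7.86, 7.83 and 7.77 unstimulated and at 10.89, 10.78 and 10.70 with CpG and rose by 2.97 ± 0.07 (limma adjusted p = 2.13e-12). Its partner kinases Cdk6 and Cdk4 rose by 2.44 and 1.35. Of replication genes, Pcna rose by 0.58, while Ccne1 differed by -0.66 ± 0.29 (limma adjusted p = 0.0621) and was not called. Of 20 mitotic genes 1 rose (Cdc20, by 1.13) and 2 fell (Aurkb, by 1.09, and Cenpe, by 0.70), with a median of 0.10. These shares were 5% and 10%, against 29.6% and 26% of all tested genes. Mki67 was at 7.42, 6.22 and 5.81 unstimulated and at 6.79, 5.66 and 5.26 with CpG, so the groups overlapped and it was not called (limma adjusted p = 0.381). In each replicate number, however, the CpG library was below the unstimulated one. With the replicate number as a block Mki67 was called, as were Ccne1, Ccnb1 and Cdc6. Mitotic calls were sensitive to single libraries: Cdc20 was at 0.98 in unstimulated library 3 and differed by 0.38 without it. Depending on which of the 6 libraries was left out, between 0 and 4 mitotic genes were higher (4 without unstimulated library 1, 2 without unstimulated library 2 and 0 without unstimulated library 3) and 1 or 2 were lower (1 without either of the first 2 unstimulated libraries or without CpG library 2 or 3).

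Of 26 survival and death genes 13 rose (50%, against 29.6% of all tested genes) and 7 fell (26.9%, against 26%), with a median of 0.54. The share that fell was near that of the background. Bcl2l1, which encodes BCL-XL, was at 5.63, 4.73 and 4.52 unstimulated and at 9.16, 8.79 and 8.71 with CpG and rose by 3.93 ± 0.22 (limma adjusted p = 2.66e-09). Traf1 rose by 2.66, Cflar, which encodes the caspase-8 inhibitor c-FLIP, by 2.18 and the kinase gene Pim1 by 1.94. Bcl2a1a, Bcl2a1b and Bcl2a1d, encoding A1, rose by 2.63, 2.37 and 2.88, but they are near-identical copies whose reads cannot be divided with certainty. Mcl1 fell by 0.74, from between 9.95 and 10.13 to between 9.28 and 9.36, and the proapoptotic gene Bmf by 2.13. Faim3, the IgM Fc receptor, fell by 2.61.

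Transcription factors of B cells and plasma cells fell more often than they rose. Of 25 such factors 12 fell (48%, against 26% of all tested genes) and 6 rose (24%, near the 29.6% of all tested genes), with a median of -0.38. Ets1, which restrains plasma cell formation, was at 10.77, 10.55 and 10.69 unstimulated and at 7.24, 6.88 and 7.08 with CpG and fell by 3.61 ± 0.09 (limma adjusted p = 4.52e-12). Pou2af1, a coactivator of immunoglobulin genes, fell by 3.14, Mef2c by 3.05, Ikzf3 by 2.81 and Id3 by 2.41. Irf4, needed for both germinal centre and plasma cell fates, rose by 1.36 ± 0.06, from between 9.44 and 9.60 to between 10.83 and 10.91. Prdm1, which encodes BLIMP-1, was at 3.88, 4.21 and 2.62 unstimulated and at 3.28, 3.43 and 3.66 with CpG, a difference of -0.11 ± 0.30 (limma adjusted p = 0.748). Without unstimulated library 3 it was called at -0.59, and without unstimulated library 2 it differed by 0.20, so its direction rests on single libraries. Pax5 differed by 0.47 and Bcl6 by 0.50, just under the threshold. Without unstimulated library 1 Pax5 was called at 0.51 and Bcl6 at 0.57, and without CpG library 2 at 0.53 and 0.56, and Bcl6 was also called, at 0.55, without CpG library 3. Xbp1 fell by 0.55 and was at -0.49 and not called without CpG library 1.

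Of 18 genes of class switching and mutation 9 rose (50%, against 29.6% of all tested genes) and 2 fell (11.1%, against 26%), with a median of 0.52. Ung, the uracil glycosylase that acts on deaminated DNA, rose by 2.37 ± 0.11, from between 3.38 and 3.56 to between 5.74 and 5.99. Of 28 chaperone and secretory genes 4 rose (14.3%, against 29.6% of all tested genes) and 7 fell (25%, against 26%), with a median of 0.03. The chaperone genes Dnajb9 and Hspa5 rose by 1.56 and 0.64, and Mzb1, a cochaperone for immunoglobulin, fell by 2.70. The sum of plasma cell markers was lower with CpG, 7.73 to 8.15 against 8.57 to 8.93 log2 CPM, and Igj made up most of it. Of 3 tested, 2 were called lower (Igj and Sdc1) and Prdm1 was not. Whether the lower sum bears on Mzb1 was not tested.

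The response was similar in size without unstimulated library 3. With 2 unstimulated libraries left, 3458 genes were called higher and 3026 lower. Of the 6388 calls made with all libraries, 6045 (94.6%) were made again in the same direction, 343 were not, 439 genes were called that had not been, and 0 were called in opposite directions. Log2 fold changes with and without the library correlated at 0.973 over 11494 genes, which are not independent and which share the other 5 libraries. The median size of the shift was 0.08 log2 units, and 623 genes moved by more than 0.5. Of the 206 named genes 4 had another call, the genes Fos, Cd86, Prdm1 and Cdc20 described above.

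Part of the departure of unstimulated library 3 was in genes near the bottom of its range. In this library 311 tested genes were under -4 log2 CPM, against between 11 and 21 in each of the other 5 Tlr997 libraries. Of the 311, 165 were over -1 in both other unstimulated libraries, a pattern seen in no more than 2 genes of any other library. These 165 genes had a median change of 1.88 with all libraries and 0.20 without library 3. CpG was called to raise 61 of them, of which 47 were also called without the library. Socs2 and Eno1 belong to them. The median SD over tested genes was 0.18 in the unstimulated group, 0.10 between its libraries 1 and 2 and 0.12 in the CpG group.

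**Figure D4:**
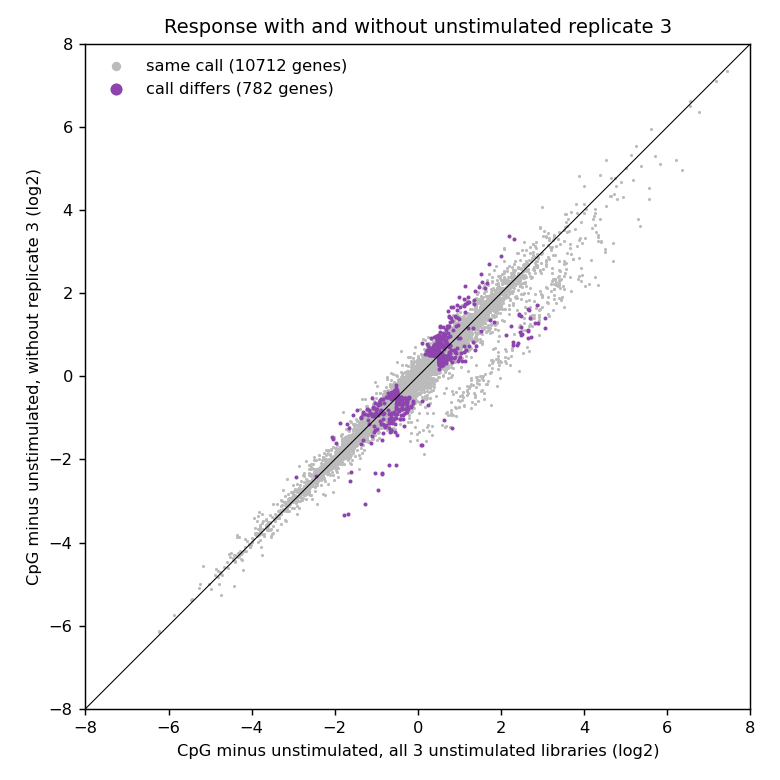
Change with CpG of each tested gene without unstimulated replicate 3 (vertical axis, log2) against the change with all 3 unstimulated libraries (horizontal axis, log2), with genes whose call differed in purple and the line of equality in black. Most points lie on the line (correlation 0.973), and 623 of 11494 genes moved by more than 0.5.

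To see where the response of the chimera departed from that of Tlr9het cells, the difference of the 2 responses was tested as an interaction in the same limma model. It was called in 177 genes, 79 with a higher log2 response in Tlr997 (0.687% of tested genes) and 98 with a lower one (0.853%), and 1839 had an unadjusted p under 0.05. Of the 6388 genes that CpG changed in Tlr997, 6342 had the same sign in Tlr9het and 135 (2.11%) a called difference. Where both responses were called as well, the change was smaller in Tlr997 for 95 genes and larger for 22.

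Several of the strongly induced genes rose less in Tlr997. Il12b had a response of 5.61 in Tlr997 against 8.18 in Tlr9het, which is -2.56 apart (limma adjusted p = 0.0055). Its group means were 1.113 unstimulated and 6.72 with CpG in Tlr997, against -0.305 and 7.87 in Tlr9het. Part of the gap thus lay in the low unstimulated level and part in the stimulated level. Rhbdl3 differed by -2.71 and Batf by -0.82. The Rhbdl3 means were likewise 0.389 unstimulated and 5.52 with CpG in Tlr997, against -0.687 and 7.16 in Tlr9het. The same direction was called for the cytokine genes Lta (-1.20) and Tnf (-0.62), the chemokine gene Ccl4 (-0.94), the feedback genes Lag3 (-1.66), Socs1 (-1.24) and Tnfaip3 (-0.62), the activation marker Slamf1 (-1.14) and the growth genes Hk2 (-0.77), Slc16a1 (-0.58) and Ccnd2 (-0.65). Il6 (-0.54, limma adjusted p = 0.67) and Il10 (-0.27, limma adjusted p = 0.82) did not pass the test. Ccl22 went the other way: its rise was 3.83 in Tlr997 against 2.25 in Tlr9het, which is 1.58 apart (limma adjusted p = 0.0034).

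Among genes that fell, S1pr1 fell further in Tlr997 (3.88 against 2.67 log2 units, difference -1.21, limma adjusted p = 0.0041), and so did Pou2af1 (difference -0.62). Foxo1 fell by 0.61 in Tlr997 and differed by -0.04 with CpG in Tlr9het, a difference of -0.57 (limma adjusted p = 0.0088). Members of the B cell receptor list fell less: Inpp5d had a difference of 0.64, and Btk (0.70), Syk (0.75) and Cd79b (1.14), which were picked out after their values were seen, had the same sign. Of that list of 24, 4 (16.7%, against 0.687% of all tested genes) had a higher and 0 a lower response. This list too was chosen with earlier results of these data known, so the share is a description only. Of the 35 interferon genes 1, Stat2, had a called difference (0.79), so for Isg15 (-0.08, limma adjusted p = 0.96), Mx1 (1.04, limma adjusted p = 0.24) and Irf7 (0.70, limma adjusted p = 0.23) a difference was not shown. Nor was it shown that the responses were alike: the list median was 0.43 in Tlr997 and 0.02 in Tlr9het, a gap that was not tested. The paper compared stimulated cells of the 2 genotypes directly and reported type 1 IFN signalling among the top 2 pathways in Tlr997. That is another comparison than the difference of responses. The number of called differences depended on single libraries, and it was 292 without unstimulated Tlr997 library 3 and 87 without unstimulated Tlr9het library 1. It was also below the main count by over 1.5 times without each CpG library of Tlr9het (101, 101 and 90 for libraries 1, 2 and 3).

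**Figure D5:**
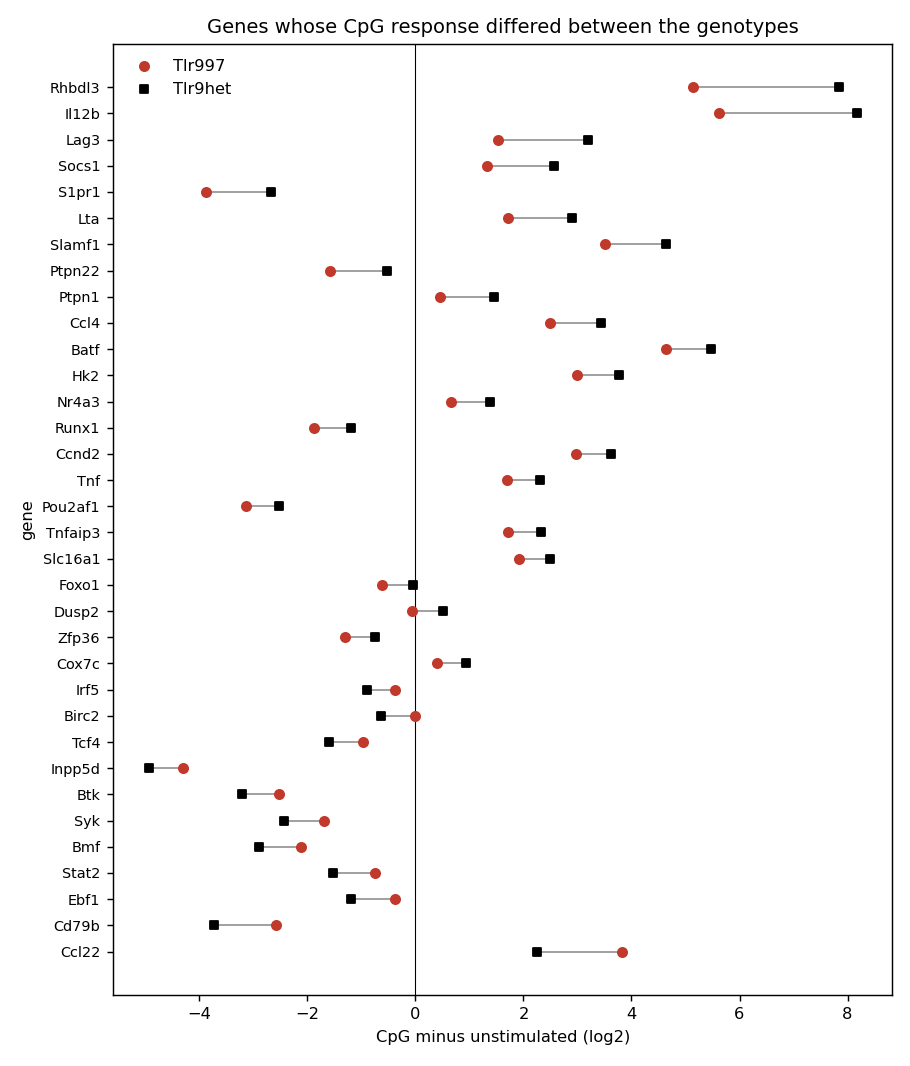
Change with CpG (horizontal axis, log2) in Tlr997 (red circles) and Tlr9het (black squares) for 34 listed or leading genes with a called difference, joined by a line. The distance between the symbols runs from -2.71 for Rhbdl3 to 1.58 for Ccl22, and both genotypes share the direction of change in nearly every gene shown.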

How the data were processed

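RNA from bead-enriched splenic B cells was sequenced after 4 h of culture with or without CpG. Per the labels and the study's methods, the authors trimmed reads with Trim Galore 0.6.5 after FastQC 0.11.7, aligned them to mm10 with STAR 2.6.1a and counted genes with featureCounts (Subread 2.0.1). The deposited values were log2 CPM after the authors' quantile normalization and voom transformation, 1 file per sample with 23420 gene symbols and no counts. The values contain voom's offset, which understates changes of low genes, and the depth of single libraries is unknown.

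Groups were taken from the sample titles. Genes were kept where at least 3 of the 12 Tlr7-/- libraries exceeded 0 log2 CPM, and 11494 were tested with limma 3.58.1 in R 4.3.3 (a mean per group, variance trend on the mean, 8 residual degrees of freedom). No pseudocount was added. P-values were adjusted by Benjamini-Hochberg over all tested genes, and calls required both an adjusted p under 0.05 and a log2 fold change over 0.5 in size. The interaction was the response in Tlr997 minus that in Tlr9het. Errors are standard errors from the model. The tests were checked on simulated data.

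Members, lists and motifs were chosen with earlier results of these data known. Named genes were the 12 called genes with the highest and the 12 with the lowest log2 fold change, over 2 log2 CPM on average and without overlap between groups, the anchor genes of 26 lists with up to 4 called members of each, those of them with a called interaction, and Tlr9 and Tlr7. Not every gene that met the rule is described, some are not reported here, and list members outside it are given as examples picked after their values were seen. Of list members, 21 failed the filter on low values, and Spi1, Pkm2 and Msmo1 were not among the symbols.

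Coordinates are those of RefSeq on GRCm38, the assembly behind mm10. Of 23420 symbols 21571 matched directly and 23260 with older symbols. RefSeq promoter sequences were matched for 9204 tested genes and 490 of 617 tested list members, and 6 motifs were searched (κB site, E-box CACGTG, AP-1 site TGANTCA, cAMP response element TGACGTCA, interferon-stimulated response element and Y box). Where a gene has several starts, the start farthest upstream was taken. Windows that overlap an exon of the gene were not printed.

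The labels describe 3 mice per genotype but do not say that samples of the same number share a mouse. The main fit treats the samples as unpaired and so does not use a pairing if there was one. The p-values measure the spread between these samples. Of 6614 genes under -4 log2 CPM in all 12 libraries, 6306 had a single value per replicate number and 822 of these differed between the numbers, a trace of an adjustment by replicate number that the methods do not describe. The 8 residual degrees of freedom do not take account of it. Alternatives covered the libraries fitted, the filter, the fold threshold, the variance model, the scaling, the replicate number as a block and leaving out each library.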

Additional observations from a re-analysis of the deposited data

Results flagged for a closer look

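In 177 genes the response to CpG differed between Tlr997 and Tlr9het by limma's test of the difference itself (Benjamini-Hochberg adjusted p under 0.05, size over 0.5 log2 units). Of those that belong to a gene list or lead the response, 34 are given here as the log2 response in Tlr997 minus that in Tlr9het. Those outside the naming rule were picked because the difference was called. Over 21 alternative settings and left-out libraries, 9 of the 34 were called each time: Rhbdl3 (-2.71), Ptpn1 (-1.01), Ccnd2 (-0.65), Tnfaip3 (-0.62), Tcf4 (0.63), Inpp5d (0.64), Btk (0.70), Ebf1 (0.81) and Ccl22 (1.58). Over the alternatives the adjusted p of Ebf1 ran from 7.7e-06 to 0.00134 and that of Rhbdl3 from 0.00155 to 0.0433.

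Genes called in 18 to 20 of the 21 alternatives were Il12b (-2.56), Lag3 (-1.66), S1pr1 (-1.21), Slamf1 (-1.14), Ccl4 (-0.94), Batf (-0.82), Foxo1 (-0.57) and Cox7c (-0.55). Of these 8, S1pr1 and Foxo1 fell with CpG in Tlr997, and the other 6 were higher with CpG in value, by less than in Tlr9het.

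Genes called in 9 to 15 alternatives were Socs1 (-1.24), Lta (-1.20), Ptpn22 (-1.05), Hk2 (-0.77), Nr4a3 (-0.72), Runx1 (-0.68), Tnf (-0.62), Pou2af1 (-0.62), Slc16a1 (-0.58), Dusp2 (-0.56), Zfp36 (-0.55), Irf5 (0.51), Birc2 (0.62), Syk (0.75), Bmf (0.77), Stat2 (0.79) and Cd79b (1.14). Their calls depended on the setting or on single libraries. Of 28 feedback inhibitors tested, 6 (21.4%, against 0.853% of all tested genes) had a lower log2 response in Tlr997 and 0 a higher one. These were Lag3, Socs1, Ptpn22, Ptpn1, Dusp2 and Zfp36. Zfp36 fell with CpG in Tlr997, so its lower log2 response is a larger fall and not a weaker rise. Of the 6, 4 (Socs1, Ptpn22, Dusp2 and Zfp36) were called in only 10 to 12 of the 21 alternatives. The list was chosen with earlier results of these data known. The paper names SOCS1, SOCS3, PTPN1B (taken here as Ptpn1), RUNX1 and S1PR1 among inhibitors with more transcript in stimulated Tlr9+/- cells. The share is thus a description and not independent evidence. These differences rest on 3 libraries per group.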

How the results depend on the processing

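The counts of genes higher with CpG in Tlr997 (3400) and genes lower with CpG in Tlr997 (2988) stayed within 1.5 times under every change of libraries, filter, variance model and scaling and without each library (3229 to 3491 higher, 2870 to 3041 lower). With a fold threshold of 1 they were 1945 and 1823, and with none 4364 and 3806. The 177 differences between genotypes were less stable: 46 with a fold threshold of 1, 78 without a filter, 98 without a variance trend, 377 with array weights, and between 87 and 292 with 1 library left out, lowest without unstimulated Tlr9het library 1 and highest without unstimulated Tlr997 library 3. The cause was not tested, except that a higher threshold and a longer list of tests are themselves stricter. Unstimulated and CpG samples of Tlr997 with the same number correlated at 0.373, 0.0826 and 0.0248 in their deviations from the group means. The numbers were therefore not taken as pairs, but these correlations cannot show that same-numbered samples came from different mice. Erythroid marker sums for numbers 1, 2 and 3 were 9.63, 5.16 and 6.10 unstimulated and 8.63, 4.81 and 5.56 with CpG. Macrophage and monocyte sums were 8.75, 8.06 and 7.46 unstimulated and 7.89, 7.31 and 6.77 with CpG. If the numbers are pairs, the fits with a block apply. With the replicate number as a block over all 12 libraries 3433 genes were higher, 3023 lower and 215 differed, and with the block within each genotype 3465, 3041 and 328. Among named genes the block added calls for Mki67, Ccnb1, Cdc6, Ccne1 and Ifit3. Genes that were not called changed sign when 1 library was left out: Prdm1 (-0.59 to 0.20), Srebf2 (-0.083 to 0.028), Cox4i1 (-0.0815 to 0.0495), Top2a (-0.12 to 0.28) and Plk1 (-0.091 to 0.27), and Top2a was at -0.030 with array weights. Over all alternatives the 206 named genes kept direction and call 3015 times, lost a call 36 times, gained one 27 times and changed sign 12 times. Depth per library is unknown, so low genes carry no counting interval, and 3 libraries per group limit the precision.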

Other observations

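Some transcripts crossed the level of 3 counts (-2.24 log2 CPM) altogether. In 9 genes all 3 unstimulated libraries were under that level and all 3 CpG libraries over 0 log2 CPM. Gareml was at -5.38, -3.87 and -4.91 unstimulated and at 2.599, 2.66 and 2.90 with CpG. Mmp10, which encodes a secreted metalloproteinase, was at -3.31, -2.31 and -4.96 unstimulated and at 2.37, 2.36 and 2.15 with CpG. Prkaa2, a catalytic subunit of AMP-activated kinase, was at -5.04, -4.94 and -5.18 unstimulated and at 1.69, 2.25 and 2.42 with CpG. Vash1, Ddn, Pla2g4f, Chd5, Snord87 and Gm16793 showed the same pattern and reached between 0.04 and 2.81. In all 9 genes the stimulated level was low, and no fold is given against values under the level of 3 counts.

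In 8 genes all 3 unstimulated libraries were over 0 log2 CPM and all 3 CpG libraries under the level of 3 counts. Hepacam2, an adhesion molecule of the immunoglobulin family, was at 3.01, 3.05 and 3.27 unstimulated and at -3.34, -2.62 and -3.40 with CpG. Ngfr, the low-affinity neurotrophin receptor, was at 1.21, 0.95 and 0.70 unstimulated and at -2.46, -2.38 and -2.90 with CpG. Pmel, Cacnb1, Ift43, 2810429I04Rik, Rasgrf2 and Gm19897 did the same from between 0.02 and 1.82.

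Of markers kept for age-associated B cells, Tbx21, which encodes T-bet, was at 1.85, 2.04 and 2.69 unstimulated and at 4.09, 4.92 and 4.48 with CpG and rose by 2.30 (limma adjusted p = 3.23e-05). Zeb2 rose by 0.59. Itgam was called higher by 0.98, with 2.23 in unstimulated library 3 against 4.05 and 4.00 in the others. With CpG it was at 4.32 to 4.52, so the size of its change rests largely on library 3. Itgax, which encodes CD11c, differed by -0.38 and was not called. Zbtb46, kept as a dendritic cell marker, rose by 1.86, from between 3.80 and 4.06 to between 5.49 and 5.92. Of the other 6 markers of these cells, Flt3 was between 3.88 and 4.44 and higher in value with CpG, by 0.39, Itgax was between 1.92 and 2.53, and Siglech and Ccr9 differed by -0.80 and -0.55, none of these called. Clec9a and Xcr1 were under 0 in all 6 libraries. The summed level of the list was 5.35 to 5.47 unstimulated and 6.20 to 6.53 with CpG, and the part of dendritic cells in the rise of Zbtb46 was not tested.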
